A study of Mus musculus with 8 samples.

Results

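The solute carrier (Slc) genes encode membrane proteins that move sugars, amino acids, metals, nucleosides and other small molecules across cell and organelle membranes. Here they are described in microglia, the brain's own macrophages, isolated by cell sorting from mouse hippocampus. The genes were taken as the rows whose symbol starts with Slc, a family number and a letter, and whose mean over the 8 libraries reached 100 normalised read counts. Of 387 such rows among the 55471 rows of the table, 156 passed that mean. A further 58 had a mean of 10 to 100, 29 a lower mean with some reads, and 144 no reads. For 3 of the 156 the Ensembl identifier belongs to another gene in GENCODE M21, and they were set apart, which left 153 genes. The members were thus chosen by name and by their own level, and a gene may have passed through 1 group alone. The group mean reached 100 in both groups for 134 genes, after IL-33 alone for 8 and after PBS alone for 11.

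The 2 groups were C57/Bl6 mice at postnatal day 30 injected with interleukin-33 (IL-33, replicates 1 to 4) and mice of the same strain and age injected with phosphate-buffered saline (PBS, replicates 5 to 8). Hippocampi were taken 4 hours after the injection. Each group had 2 female and 2 male libraries, and no genetic change is given in the labels. The sort kept cells with CD11b, with a low level of CD45 and without Ly-6C. The QuantSeq kit was used, which reads the 3′ ends of polyadenylated RNA, so that a count does not scale with gene length and levels of different genes can be set side by side. The labels do not say whether each library came from its own animal, so p-values measure the spread between these libraries, which may be partly technical.

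As background, carriers work either alone or in pairs with a partner chain, and many sit in the endosome, lysosome, Golgi or mitochondrion and not at the surface. In macrophages they are known for moving iron, copper and zinc into and out of compartments that hold engulfed material. They also supply cystine for glutathione, and glucose and glutamine for an inflammatory response. In the brain, the fructose carrier gene Slc2a5 is known as a marker of microglia.

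The libraries held 16827343 to 21483352 reads, and IL-33 replicates 3 and 4 had the fewest genes with at least 10 reads (8948 and 7958, against 10311 to 11902 in the others). Replicates 3 and 4 are the male IL-33 libraries, so after IL-33 sex and the number of genes found cannot be told apart. These same libraries also had the most Slc genes with fewer than 3 reads, 18 and 25 of the 153, against 4 and 5 in IL-33 replicates 1 and 2 and 6 to 9 in the PBS libraries. Of the 153 genes, 42 had at least 1 library under 3 reads, but none of the 49 with a mean of 1000 or more did. The 8 microglial markers summed to 364978 to 641253 after IL-33 and 513169 to 762217 after PBS. Of these markers 4 were called lower and none higher, against 2.80% of all genes tested called lower. Cx3cr1, the fractalkine receptor gene, was not called and averaged 197999 ± 51970 after IL-33 and 195362 ± 46104 after PBS (SD, n = 4 each). Csf1r averaged 111604 ± 29886 after IL-33 and 173692 ± 50037 after PBS and was called lower (limma, −0.63, adjusted p = 0.0464). In edgeR Csf1r was not called (adjusted p = 0.153). The summed markers of other cells were low: 339 to 1886 after IL-33 and 218 to 1008 after PBS for 6 neuronal genes, and 602 to 1054 and 68.9 to 691 for 7 astrocyte genes. The sums were 2371 to 5159 after IL-33 and 1475 to 3296 after PBS for 6 oligodendrocyte genes, 0 to 617 and 31.5 to 364 for 5 genes of border macrophages, and 0 to 119 and 6.82 to 161 for 4 monocyte genes, none of them called. The 4 neutrophil markers S100a8, S100a9, Ly6g and Retnlg were at 0 in every library. In sorted bulk RNA, fewer cells of a type and less RNA per cell cannot be told apart.

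After IL-33, 12 of the 153 Slc genes rose and 10 fell at an adjusted p under 0.05 (limma, Benjamini-Hochberg over all 13877 genes tested). That is 14.4% of these genes, against 5.85% of all genes tested, 3.06% higher and 2.80% lower. Among the 9374 tested genes that also had a mean of at least 100 it was 8.60%, 4.52% higher and 4.08% lower. None of the 58 Slc rows with a mean of 10 to 100 was called. The median log2 fold change was 0.02 for the 153 genes, −0.40 for all genes tested and −0.21 for tested genes with a mean of at least 100. The IL-33 and PBS values did not overlap for 40 of the 153 genes (26.1%), against 13.7% of all genes tested and 18% of those with a mean of at least 100. They did not overlap for any of the 22 called genes.

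**Figure D1:**
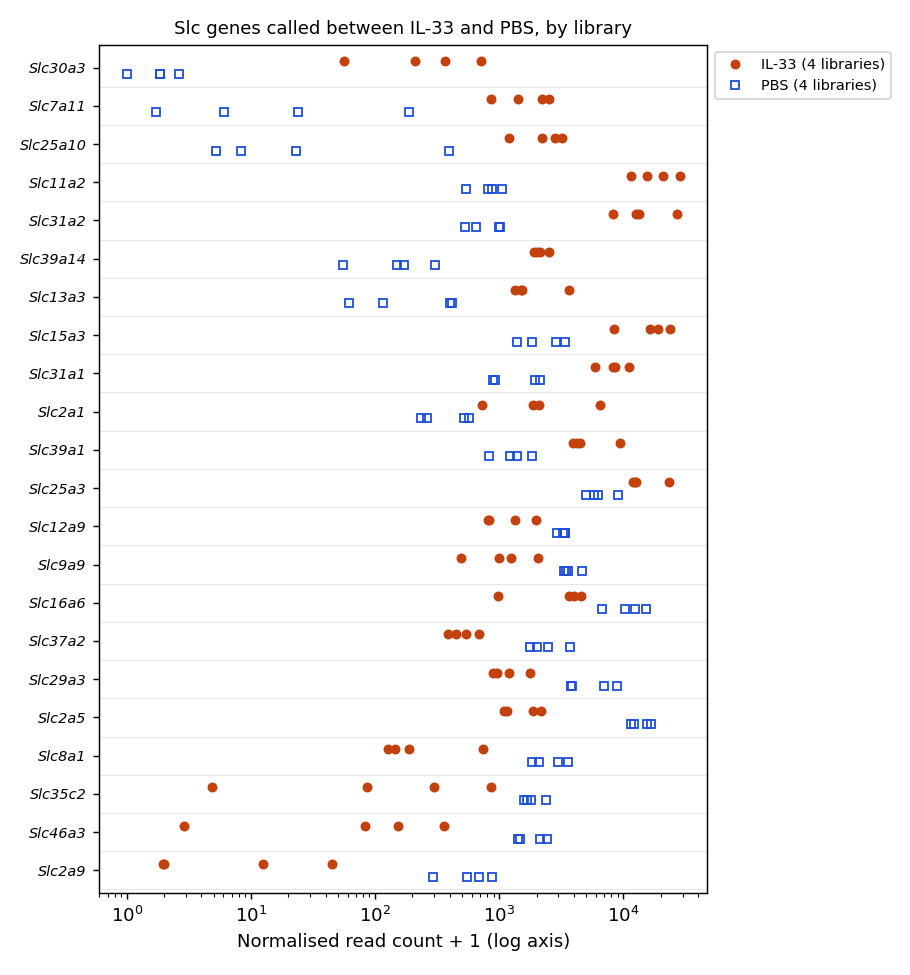
Normalised read count plus 1 (log axis) in each of the 8 libraries for the 22 called Slc genes, ordered from the largest rise to the largest fall; filled circles are the 4 IL-33 libraries and open squares the 4 PBS libraries. The groups are apart in every row, and Slc30a3, Slc7a11, Slc25a10, Slc35c2, Slc46a3 and Slc2a9 spread widest within a group.

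Promoters of the 2 largest rises and the 2 largest falls that have an entry in the RefSeq table (GRCm38.p6) are shown here, from 250 bases before the transcript start to 50 after it, read 5′ to 3′ on the gene's strand. Capitals mark matches on either strand to the NF-κB consensus, the AP-1 site (TGANTCA), the E-box (CACGTG), the amino acid response element (TGATGNAA), the antioxidant response element (TGANNNNGC) or the metal response element (TGCACNC or TGCGCNC). The windows are chr5:31108195-31108494 for Slc30a3, chr3:50443564-50443863 for Slc7a11, chr5:38483336-38483635 for Slc2a9 and chr5:147894766-147895065 for Slc46a3, all on the minus strand; the Slc2a9 window lies inside the GENCODE span of the gene, at an internal start.
Slc30a3: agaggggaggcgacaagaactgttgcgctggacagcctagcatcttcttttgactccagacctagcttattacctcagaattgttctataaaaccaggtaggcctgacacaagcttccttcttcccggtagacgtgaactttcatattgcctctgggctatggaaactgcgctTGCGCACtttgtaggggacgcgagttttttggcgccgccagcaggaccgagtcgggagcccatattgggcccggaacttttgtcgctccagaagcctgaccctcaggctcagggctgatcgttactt
Slc7a11: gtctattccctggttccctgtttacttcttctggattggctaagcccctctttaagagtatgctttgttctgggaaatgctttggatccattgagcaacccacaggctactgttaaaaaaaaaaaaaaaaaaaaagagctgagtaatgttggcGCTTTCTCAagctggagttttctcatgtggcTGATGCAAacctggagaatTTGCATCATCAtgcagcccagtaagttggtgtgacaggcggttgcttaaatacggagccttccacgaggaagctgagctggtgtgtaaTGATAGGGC
Slc2a9: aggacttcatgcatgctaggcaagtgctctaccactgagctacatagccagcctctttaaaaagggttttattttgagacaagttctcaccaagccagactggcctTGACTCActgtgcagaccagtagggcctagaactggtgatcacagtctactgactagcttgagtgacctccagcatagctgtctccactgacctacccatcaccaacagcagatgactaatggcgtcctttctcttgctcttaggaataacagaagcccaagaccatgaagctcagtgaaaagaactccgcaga
Slc46a3: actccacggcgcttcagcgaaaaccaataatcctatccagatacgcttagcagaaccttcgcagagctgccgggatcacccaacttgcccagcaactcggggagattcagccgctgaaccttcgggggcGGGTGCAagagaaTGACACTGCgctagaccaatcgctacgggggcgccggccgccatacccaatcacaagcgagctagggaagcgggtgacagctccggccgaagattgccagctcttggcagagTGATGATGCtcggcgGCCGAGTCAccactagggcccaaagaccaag
The Slc7a11 window held 2 amino acid response elements on opposite strands and 3 antioxidant response elements, of which 1 overlapped an amino acid response element. The Slc30a3 window held 1 metal response element, the Slc2a9 window 1 AP-1 site, and the Slc46a3 window 3 antioxidant response elements and 1 metal response element. Of the 32851 promoters in the table, 3.97% held an amino acid response element, 41.3% an antioxidant response element, 7.81% an AP-1 site, 4.51% the NF-κB consensus, 7.15% an E-box, 12.6% TGCACNC and 15.4% TGCGCNC. Of the 18 called Slc genes with an entry, 2 held an amino acid response element in at least 1 of their windows, 8 an antioxidant response element, 3 an AP-1 site, 2 the NF-κB consensus, 3 an E-box, 5 TGCACNC and 3 TGCGCNC. The percentages count single promoters, whereas a gene was counted if any of its windows matched. These counts therefore cannot be compared directly with the percentages. A match is a description of the letters and shows no binding.

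Metal carriers held 6 of the 12 rises and no fall. Of 27 genes, 6 rose and 21 did not pass, against 8.60% called among all tested genes with a mean of at least 100. The median log2 fold change of the class was 0.72. Slc11a2 (chr15:100387898-100425072, minus strand) encodes the proton-coupled importer of ferrous iron and other divalent metals. It was at 20680, 11449, 15441 and 28454 after IL-33, against 541, 808, 1051 and 875 after PBS. The lowest IL-33 library was thus far above the highest PBS library, and the log2 fold change was 4.49 ± 0.35 (SE, adjusted p = 4.57e-08). Slc11a2 held 29.4% of the summed reads of metal carriers after IL-33 and 4.65% after PBS, after IL-33 the largest share of the 6 genes.

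Both copper carrier genes rose, and they lie near each other on chromosome 4. Slc31a2 (chr4:62262562-62298411, plus strand), a relative of the copper importer found on inner membranes, was at 8263, 13315, 12635 and 27199 after IL-33, against 1012, 532, 644 and 987 after PBS (4.19 ± 0.39, adjusted p = 5.81e-07). Slc31a1 (chr4:62360727-62391769, plus strand), the high-affinity copper importer, was at 5944, 8524, 8251 and 11168 after IL-33, against 2141, 1930, 889 and 927 after PBS (2.60 ± 0.37, adjusted p = 1.38e-04). IL-33 replicate 4 was the highest library for both genes and for Slc11a2.

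Of the zinc carriers, the importers Slc39a14 and Slc39a1 and the vesicular exporter Slc30a3 rose. Slc39a14 (chr14:70303469-70351425, minus strand), which also carries iron and manganese, was at 2020, 2506, 1888 and 2124 after IL-33, against 303, 54.5, 148 and 170 after PBS (3.88 ± 0.69, adjusted p = 0.00132). Its IL-33 values lay closest together of the metal carriers called. Slc39a1 (chr3:90248172-90253612, plus strand) was at 3949, 4223, 9372 and 4440 after IL-33, against 1399, 1819, 830 and 1210 after PBS (2.02 ± 0.40, adjusted p = 0.00324).

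Slc30a3 (chr5:31086106-31108237, minus strand) loads zinc into synaptic vesicles of neurons. It was at 55.1, 208, 715 and 364 after IL-33, against 0.847, 0.852, 1.64 and 0 after PBS. All 4 PBS values are under 3 reads, so its log2 fold change of 7.08 ± 2.06 (adjusted p = 0.0475) depends on the added 1. The call ended without IL-33 replicate 2, 3 or 4 (7.14, 6.55 and 6.87), without PBS replicate 5, 6, 7 or 8 (7.11, 7.12, 7.29 and 6.82) and without IL-33 replicates 3 and 4 together (5.96, adjusted p = 0.196). The call also ended with sex as a covariate (adjusted p = 0.0558), with a pseudocount of 0.5 (7.63, adjusted p = 0.0537) and with no filter on low values (adjusted p = 0.101). Of the 6 neuronal markers above, none was called, and the part of neuronal RNA in the Slc30a3 values was not tested.

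The metal carriers that were not called ranged from −4.25 to 2.83 in log2 fold change, with 10 of 21 above 0. Slc40a1, the iron exporter ferroportin, is named after its values had been seen. It was at 277, 198, 445 and 2368 after IL-33, against 3059, 1912, 1350 and 2226 after PBS (−2.06 ± 0.67, adjusted p = 0.0811). IL-33 replicate 4 alone lay within the PBS range, and without it the log2 fold change was −2.81 (adjusted p = 0.00127). Slc40a1 was called in no other fit that left out 1 library, and not in edgeR (adjusted p = 0.234). It was called lower without IL-33 replicates 3 and 4 together (−3.12, adjusted p = 0.00189). Library weights (−2.55, adjusted p = 0.00559) and quantile normalization (−2.22, adjusted p = 0.0208) also gave a call, and the remaining settings gave none. Summed over all 27 genes, metal carriers took 0.356 ± 0.0908% of all reads in IL-33 libraries and 0.109 ± 0.0218% in PBS libraries (SD, n = 4 each). Without the 6 genes that rose, the sum was 0.0764 ± 0.0208% after IL-33 and 0.0805 ± 0.0169% after PBS.

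**Figure D2:**
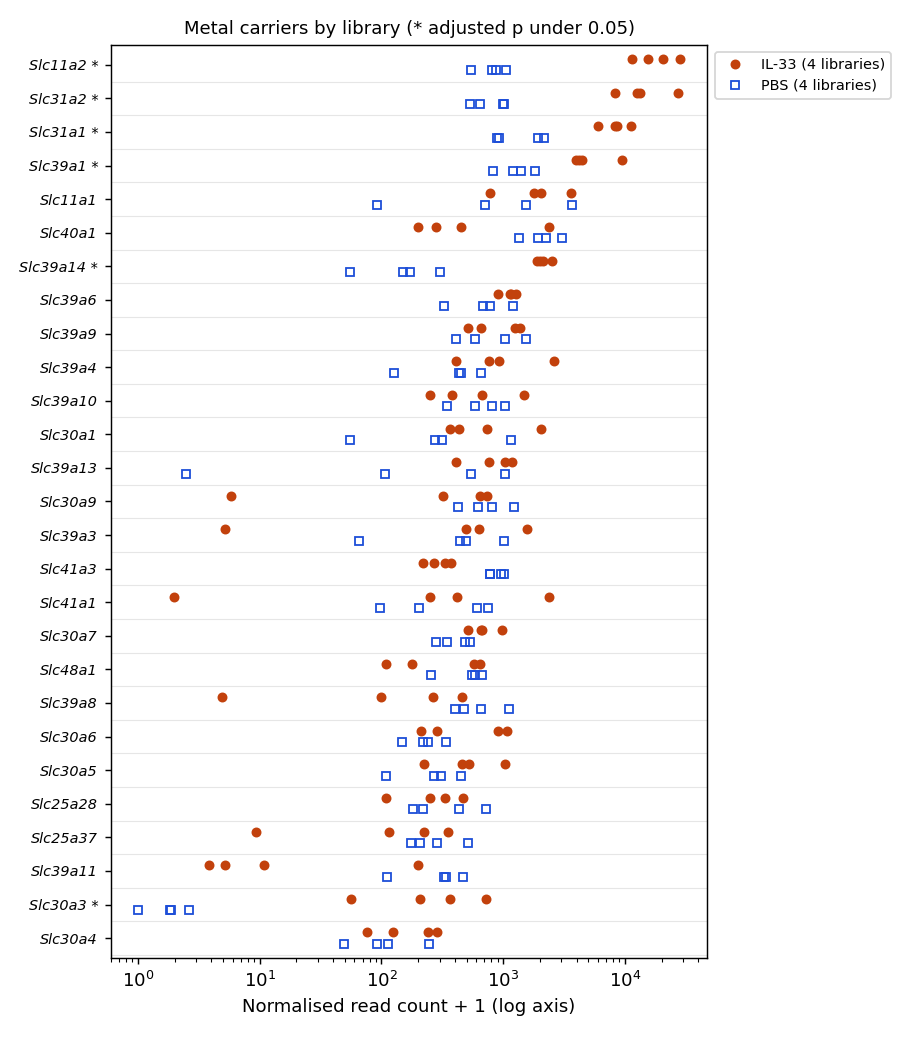
Normalised read count plus 1 (log axis) of the 27 metal carrier genes in each library, ordered by mean level, with an asterisk for the 6 called genes; filled circles are IL-33 and open squares PBS libraries. Slc11a2, Slc31a2, Slc31a1 and Slc39a1 at the top and Slc39a14 lower down have IL-33 values well above PBS values, and Slc30a3 near the foot has PBS values at or under 1.64.

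Genes that handle iron and other metals without being Slc carriers moved in part. Of 22 tested genes of this list, 2 rose, 1 fell and 19 did not pass (5.85% of all genes tested were called). The iron storage gene Fth1 was at 56805, 57963, 60554 and 78103 after IL-33, against 27457, 21842, 20337 and 28791 after PBS (1.37 ± 0.16, adjusted p = 1.26e-05). With no variance trend in the model its adjusted p was 0.187. Cp, the copper-carrying ferroxidase ceruloplasmin, averaged 1847 ± 396 after IL-33 and 50 ± 91.6 after PBS (7.33, adjusted p = 0.00245). Hfe, a regulator of iron uptake, averaged 459 ± 187 after IL-33 and 1732 ± 438 after PBS (−1.98, adjusted p = 0.0411). The Hfe call ended without IL-33 replicate 2 or 3 or any 1 PBS library (−2.11 to −1.71, adjusted p = 0.0613 to 0.155), and the Cp call without IL-33 replicates 3 and 4 together (7.17, adjusted p = 0.0643). The Hfe call also ended with no filter on low values (adjusted p = 0.051) and with no variance trend (0.117).

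Of 23 carriers of amino acids and peptides, 2 rose, none fell and 21 did not pass. This share of calls is near the 8.60% among all tested genes with a mean of at least 100. Slc7a11 (chr3:49892526-50443614, minus strand) encodes the antiporter that takes up cystine and releases glutamate. It was at 859, 2189, 1422 and 2527 after IL-33, against 5.08, 188, 23 and 0.732 after PBS (6.77 ± 1.38, adjusted p = 0.00462). The PBS libraries ranged from 1 read in replicate 8 to 188 normalised counts in replicate 6, and all lay below the IL-33 libraries. In edgeR, which weighs the ratio of the group means, its log2 fold change was 5.04 (adjusted p = 0.00503). Without IL-33 replicates 3 and 4 it was 6.54 with an adjusted p of 0.0834.

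The partner chain of Slc7a11, encoded by Slc3a2, was the most abundant gene of the class and was not called. Slc3a2 was at 15874, 14002, 14526 and 17754 after IL-33, against 11716, 18012, 13344 and 8453 after PBS (0.32 ± 0.23, adjusted p = 0.472). Slc7a5, the other well-known partner, is not among the 153 genes, since its row (Ensembl identifier of Slc7a5, chr8:121881150-121907694) carries the symbol Gnaz in the deposited table. The row, picked with its values in view, was at 355, 850, 1154 and 359 after IL-33, against 87.2, 963, 154 and 216 after PBS (1.37 ± 0.88, adjusted p = 0.415).

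Slc15a3 (chr19:10839727-10859362, plus strand), a lysosomal carrier of histidine and small peptides, was the second most abundant gene of the class. It was at 23613, 18927, 16392 and 8337 after IL-33, against 1381, 2840, 3362 and 1844 after PBS (2.82 ± 0.35, adjusted p = 2.23e-05). Its relative Slc15a4, chosen after its values were seen, averaged 2844 ± 1091 after IL-33 and 2830 ± 619 after PBS (−0.06, adjusted p = 0.943). Slc38a2, a sodium-coupled importer of glutamine and other neutral amino acids, also so chosen, was at 5990, 6293, 5905 and 3755 after IL-33, against 2528, 2464, 2778 and 3037 after PBS. These values did not overlap, but the gene missed the threshold (1.00 ± 0.31, adjusted p = 0.0656), which it passed without IL-33 replicate 4 (1.17, adjusted p = 0.0125). It passed in no other fit that left out 1 library, and not in edgeR (adjusted p = 0.0678). Slc38a2 did pass with a minimum mean of 50 (adjusted p = 0.0438), with library weights (0.0245) and without IL-33 replicates 3 and 4 (1.19, 0.0337). DESeq2 called it too (1.02, adjusted p = 0.012), and the remaining settings did not.

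Slc1a3 and Slc1a2 encode glutamate importers best known from astrocytes, and both are described although neither was called. Slc1a3 averaged 6263 ± 1466 after IL-33 and 3989 ± 1100 after PBS (0.67, adjusted p = 0.237). Slc1a2 averaged 234 ± 167 and 233 ± 251 (0.26, adjusted p = 0.956). Their values were known when they were picked for description, and none of the 6 tested astrocyte markers, of which Slc1a2 is 1, was called. The part of astrocyte RNA was not tested. Of 34 tested genes of amino acid sensing by mTORC1, 1 rose and none fell, against 5.85% of all genes tested that were called. It was Atf4, a transcription factor of the amino acid response, at 9510, 6280, 7412 and 9899 after IL-33, against 2753, 2199, 3711 and 4224 after PBS (1.38 ± 0.30, adjusted p = 0.00783). With no variance trend in the model its adjusted p was 0.207.

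Sugar carriers moved in both directions: of 13 genes, 1 rose, 2 fell and 10 did not pass. Among all tested genes with a mean of at least 100, 8.60% were called. Slc2a5 (chr4:150119283-150144169, plus strand), the fructose carrier GLUT5, was at 1884, 1098, 2167 and 1150 after IL-33, against 12082, 15392, 16585 and 11550 after PBS (−3.19 ± 0.31, adjusted p = 1.25e-06). Every IL-33 library was well below every PBS library. Slc2a5 made up 20.8% of the summed reads of sugar carriers after IL-33 and 65.2% after PBS.

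Slc37a2 (chr9:37227585-37255738, minus strand), a sugar phosphate exchanger of the endoplasmic reticulum, was at 688, 386, 539 and 450 after IL-33, against 1997, 3711, 2457 and 1781 after PBS (−2.24 ± 0.50, adjusted p = 0.00875). Without PBS replicate 6 the log2 fold change was −2.03 with an adjusted p of 0.0587, and with no variance trend the adjusted p was 0.0646. Slc2a1 (chr4:119108711-119137983, plus strand), the glucose carrier GLUT1, was at 721, 1877, 2100 and 6524 after IL-33, against 517, 235, 263 and 572 after PBS (2.49 ± 0.66, adjusted p = 0.0285). The IL-33 values spread widely, and the lowest was close to the highest PBS value. The call ended without IL-33 replicate 2, 3 or 4 (2.54, 2.49 and 1.94), without PBS replicate 6 or 7 (2.28 and 2.33) and without IL-33 replicates 3 and 4 together (1.66, adjusted p = 0.218). The Slc2a1 call also ended with no filter on low values (adjusted p = 0.0794) and with no variance trend (0.164). Slc2a1 is also abundant in brain endothelium, whose 6 markers summed to 45.8 to 294 after IL-33 and 393 to 947 after PBS, with Ly6c1 at 0 in every library and none of the 3 tested called. The part of endothelial RNA was not tested.

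The sugar carriers not called ranged from −5.19 to 3.32 in log2 fold change, with 3 of 10 above 0. The class took 0.0417 ± 0.0106% of all reads after IL-33 and 0.131 ± 0.0155% after PBS, and without the 3 called genes 0.0149 ± 0.00447% after IL-33 and 0.0280 ± 0.00473% after PBS.

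Only 3 carriers of nucleosides passed the mean of 100, all equilibrative transporters. Slc29a3 (chr10:60712072-60752794, minus strand), which moves nucleosides out of the lysosome, was at 1778, 957, 1200 and 894 after IL-33, against 3843, 6973, 8894 and 3785 after PBS (−2.24 ± 0.40, adjusted p = 0.00146). Every IL-33 library was below the lowest PBS library. The surface carrier gene Slc29a1 was at 999, 823, 348 and 4.78 after IL-33, against 611, 1954, 833 and 1208 after PBS (−2.38 ± 1.20, adjusted p = 0.292), and these ranges overlapped. Its log2 fold change was −1.06 in edgeR and −0.21 without IL-33 replicates 3 and 4. Slc29a2, the other surface carrier, chosen after its values were known, was at 229, 637, 0 and 99.3 after IL-33, against 0.847, 2.56, 381 and 0 after PBS (3.13 ± 2.55, adjusted p = 0.534). It had fewer than 3 reads or none in libraries of both groups, and no direction can be read from it.

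**Figure D3:**
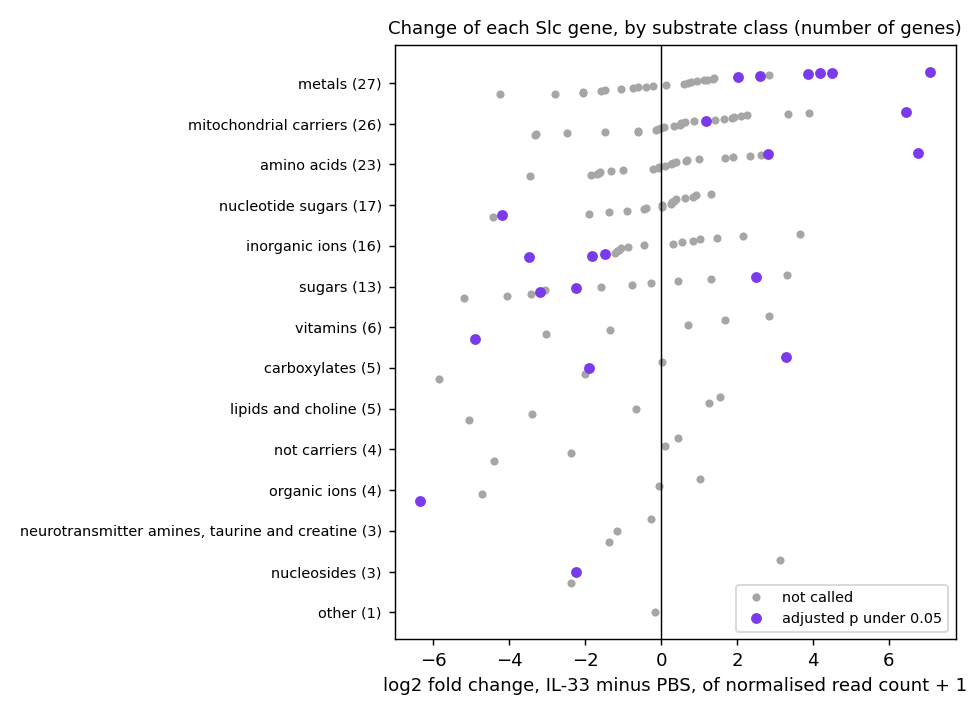
Log2 fold change (IL-33 minus PBS, of the normalised read count plus 1) of each of the 153 Slc genes, 1 row per substrate class with the number of genes; purple points are the 22 called genes and grey points the others. The called metal carriers lie to the right of 0, the called inorganic ion carriers to the left, and the called sugar carriers on both sides.

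The Slc25 family, most of whose members work in the inner mitochondrial membrane, had 2 rises and no fall among 26 genes. Such a share is near the 8.60% called among all tested genes with a mean of at least 100. The iron carriers Slc25a28 and Slc25a37 are counted with the metals. Slc25a10 (chr11:120491840-120499187, plus strand), which exchanges dicarboxylates such as malate and succinate for phosphate, was at 3175, 2228, 2793 and 1203 after IL-33, against 4.23, 394, 22.2 and 7.32 after PBS (6.46 ± 1.22, adjusted p = 0.00224). PBS replicate 6 stood above the other PBS libraries, and the edgeR log2 fold change was 4.49 (adjusted p = 0.00731). Slc25a3 (chr10:91116574-91124059, minus strand), the phosphate carrier, was at 12315, 12010, 12526 and 23395 after IL-33, against 5761, 9116, 6197 and 5036 after PBS (1.18 ± 0.27, adjusted p = 0.0107). Its call ended without PBS replicate 8 (1.07, adjusted p = 0.0525) and without IL-33 replicates 3 and 4 together (0.93, adjusted p = 0.0706). It also ended with no variance trend in the model (adjusted p = 0.298). Slc25a4, the ADP/ATP carrier of heart and muscle type, averaged 5605 ± 610 after IL-33 and 3970 ± 758 after PBS (0.51, adjusted p = 0.344). The 24 mitochondrial carriers not called ranged from −3.31 to 3.89, with 15 above 0.

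The 5 carboxylate carriers had 1 rise and 1 fall, against 8.60% called among all tested genes with a mean of at least 100. Slc13a3 (chr2:165405028-165473230, minus strand), a sodium-coupled importer of dicarboxylates at the plasma membrane, was at 1492, 1532, 1331 and 3660 after IL-33, against 61, 114, 419 and 401 after PBS (3.29 ± 0.74, adjusted p = 0.0103). Without IL-33 replicates 3 and 4 its log2 fold change was 3.02 with an adjusted p of 0.0690. Slc16a6 (chr11:109450855-109473598, minus strand), of the monocarboxylate carrier family, was at 4588, 3628, 977 and 3987 after IL-33, against 6714, 12329, 15192 and 10380 after PBS (−1.91 ± 0.41, adjusted p = 0.00686). It held 56.5% of the reads of the 5 carboxylate carriers after IL-33 and 91.8% after PBS. The other 3 genes of this class were not called.

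Carriers of inorganic ions had 3 falls and no rise among 16 genes. Of all tested genes with a mean of at least 100, 8.60% were called and 4.08% were called lower. Slc8a1 (chr17:81373105-81738377, minus strand), the sodium-calcium exchanger, was at 125, 740, 185 and 145 after IL-33, against 1821, 3556, 2973 and 2071 after PBS (−3.49 ± 0.65, adjusted p = 0.00208). Slc9a9 (chr9:94669909-95230445, plus strand), a sodium-proton exchanger of endosomes, was at 495, 1239, 998 and 2040 after IL-33, against 3348, 4614, 3441 and 3553 after PBS (−1.81 ± 0.44, adjusted p = 0.0182). Slc12a9 (chr5:137314558-137333597, minus strand), related to the cation-chloride cotransporters, was at 824, 817, 1341 and 1978 after IL-33, against 2911, 3365, 3364 and 3242 after PBS (−1.47 ± 0.41, adjusted p = 0.0400). In all 3 genes the PBS libraries lay above the highest IL-33 library. The Slc9a9 call ended without PBS replicate 5, 6 or 8 (−1.86, −1.70 and −1.83), and the Slc12a9 call without any 1 library except IL-33 replicate 4 (−1.55 to −1.31, adjusted p = 0.0503 to 0.114). Both calls ended with no variance trend (adjusted p = 0.173 for Slc9a9 and 0.201 for Slc12a9). With no filter on low values the Slc12a9 call ended as well (adjusted p = 0.062).

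The 2 most abundant genes of the class did not pass. Slc4a7, a sodium bicarbonate cotransporter, averaged 2460 ± 620 after IL-33 and 5206 ± 1505 after PBS (−1.07, adjusted p = 0.0723), and passed without IL-33 replicate 4 (−1.13, adjusted p = 0.0390). Leaving out any other 1 library brought no call, and edgeR did not call Slc4a7 (adjusted p = 0.075). Slc4a7 was called with quantile normalization (−1.27, adjusted p = 0.0175), with library weights (−1.11, adjusted p = 0.0432) and in DESeq2 (−1.08, adjusted p = 0.0215). The remaining settings did not call it. Slc12a2, the sodium-potassium-chloride cotransporter NKCC1, averaged 1678 ± 440 after IL-33 and 3626 ± 1173 after PBS (−1.10, adjusted p = 0.103). Of the alternative settings, DESeq2 alone called Slc12a2 (−1.11, adjusted p = 0.0322). The IL-33 and PBS values of both genes did not overlap.

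The other 3 falls were in genes with low values in some IL-33 libraries. Slc46a3 (chr5:147878437-147894815, minus strand), a lysosomal relative of the folate carrier, was at 152, 355, 81.9 and 1.91 after IL-33, against 1462, 2110, 1421 and 2407 after PBS (−4.91 ± 1.16, adjusted p = 0.0146). Without IL-33 replicates 3 and 4, the libraries with the fewest genes, it was −2.95 (adjusted p = 0.00436). The call ended without PBS replicate 5, 6 or 8 (−5.01, −4.83 and −4.77, adjusted p = 0.0545 to 0.0755). It also ended with no filter on low values (adjusted p = 0.0711) and with no variance trend (0.137).

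Slc35c2 (chr2:165276554-165287869, minus strand), a Golgi relative of the GDP-fucose carrier, was at 298, 85.5, 850 and 3.82 after IL-33, against 1587, 1682, 2369 and 1792 after PBS (−4.18 ± 1.14, adjusted p = 0.0355). It was the one called gene that edgeR did not call (−2.58, adjusted p = 0.0942), and without IL-33 replicates 3 and 4 it was −3.51 (adjusted p = 0.00235). The call ended without IL-33 replicate 2 (−4.10) and without PBS replicate 5, 6, 7 or 8 (−4.25, −4.22, −4.05 and −4.19). It also ended with no filter on low values (adjusted p = 0.137) and with no variance trend (0.208).

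Slc2a9 (chr5:38349273-38503143, minus strand), which carries urate, was at 11.4, 44, 0.987 and 0.955 after IL-33, against 293, 549, 681 and 867 after PBS (−6.35 ± 1.70, adjusted p = 0.0319). IL-33 replicates 3 and 4 held 1 read each, and without them the log2 fold change was −4.56 (adjusted p = 0.0235). The call ended without PBS replicate 5, 6, 7 or 8 (−6.65, −6.35, −6.25 and −6.13, adjusted p = 0.0878 to 0.136). It also ended with no filter on low values (adjusted p = 0.06).

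**Figure D4:**
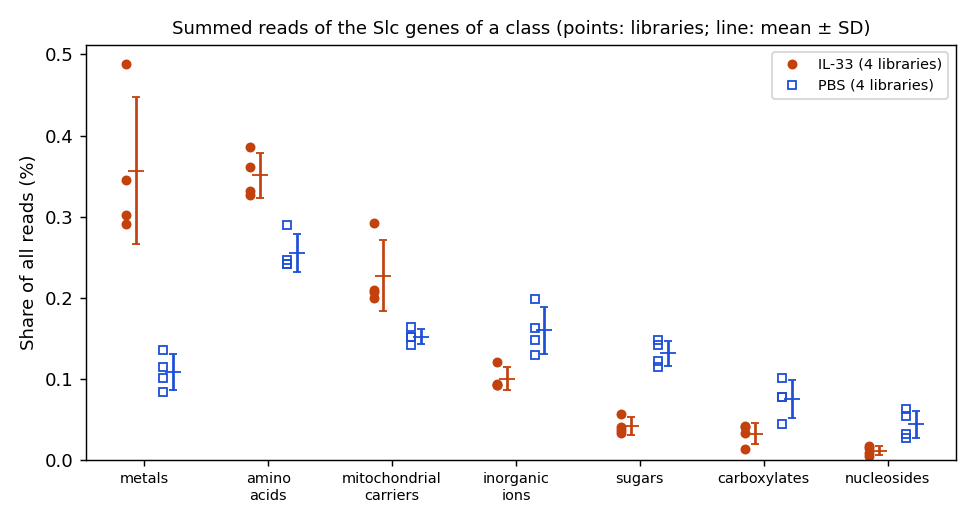
Share of all reads (%) taken by the Slc genes of 7 substrate classes in each library, with the mean and SD of the 4 libraries as a bar beside the points; IL-33 is left of PBS in each class. Metal, amino acid and mitochondrial carriers took more reads in all 4 IL-33 libraries than in any PBS library, and inorganic ion, sugar, carboxylate and nucleoside carriers fewer.

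Summed over the 153 genes, Slc transcripts took 1.19, 1.18, 1.16 and 1.51% of all reads after IL-33, against 1.03, 1.20, 1.09 and 1.06% after PBS, and these ranges overlapped. Within that total, amino acid carriers took 0.351 ± 0.0276% after IL-33 and 0.255 ± 0.0239% after PBS, and 0.247 ± 0.0200% and 0.240 ± 0.0225% without Slc15a3 and Slc7a11. Mitochondrial carriers took 0.227 ± 0.0437% after IL-33 and 0.152 ± 0.00931% after PBS, and 0.131 ± 0.0226% and 0.111 ± 0.00772% without Slc25a3 and Slc25a10. Inorganic ion carriers took 0.0999 ± 0.0143% after IL-33 and 0.160 ± 0.0294% after PBS, and 0.0848 ± 0.0106% and 0.101 ± 0.0211% without the 3 called genes. Nucleoside carriers took 0.0113 ± 0.00538% after IL-33 and 0.0438 ± 0.0169% after PBS, and 0.00449 ± 0.00385% and 0.00768 ± 0.00328% without Slc29a3. Carboxylate carriers took 0.0323 ± 0.0129% after IL-33 and 0.0750 ± 0.0233% after PBS, and 0.00298 ± 0.00209% and 0.00469 ± 0.00276% without Slc16a6 and Slc13a3. Abundant genes dominate such sums, and a share also falls when other genes take more reads.

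A further 18 Slc genes had IL-33 and PBS values that did not overlap but missed the threshold, 7 of them higher and 11 lower after IL-33 (adjusted p = 0.0656 to 0.472, limma). They are 13.7% of the 131 Slc genes not called, against 8.47% of all tested genes not called and 10.6% of those with a mean of at least 100. The genes named next were chosen after their values were seen. Among amino acid carriers these included Slc7a1, the arginine and lysine importer, at 1922 ± 897 after IL-33 and 604 ± 268 after PBS (1.69 ± 0.55, adjusted p = 0.0798). Library weights (1.77, adjusted p = 0.0449) and DESeq2 (1.67, adjusted p = 0.0166) called Slc7a1, and the remaining settings did not. Slc38a9, the lysosomal arginine sensor that acts on mTORC1, averaged 660 ± 556 after IL-33 and 1847 ± 302 after PBS (−1.85 ± 0.61, adjusted p = 0.0815), and −2.36 without IL-33 replicate 4 (adjusted p = 0.00631). No other fit that left out 1 library called Slc38a9, and its adjusted p in edgeR was 0.161. Slc38a9 was called with quantile normalization (−1.95, adjusted p = 0.0343), with library weights (−1.98, 0.024) and without IL-33 replicates 3 and 4 (−1.88, 0.0232). The remaining settings did not call it. In the sugar class Slc2a8, an intracellular hexose carrier, averaged 70.5 ± 81.1 after IL-33 and 713 ± 380 after PBS (−5.19 ± 1.61, adjusted p = 0.0664), and −6.24 and −6.12 without IL-33 replicate 1 or 3 (adjusted p = 0.0393 and 0.0422). Without any other 1 library Slc2a8 was not called, and in edgeR it was −3.32 (adjusted p = 0.18). Slc2a8 was called with a pseudocount of 5 (adjusted p = 0.0457), quantile normalization (0.0384) and library weights (0.0383). DESeq2 called it as well (−3.34, adjusted p = 0.034), and the remaining settings did not. Slc37a4, the glucose 6-phosphate carrier of the endoplasmic reticulum, averaged 207 ± 173 after IL-33 and 710 ± 181 after PBS (−3.05 ± 1.29, adjusted p = 0.196). IL-33 replicate 4 was at 1.91, under 3 reads. The log2 fold change of Slc37a4 was −1.76 in edgeR and −1.09 without IL-33 replicates 3 and 4. The chloride-bicarbonate exchanger gene Slc4a2 averaged 1150 ± 774 after IL-33 and 242 ± 114 after PBS (2.16 ± 0.75, adjusted p = 0.102), and 2.42 without IL-33 replicate 4 (adjusted p = 0.0487). Slc4a2 passed in no other fit that left out 1 library, and its adjusted p in edgeR was 0.087. DESeq2 called it (2.25, adjusted p = 0.00973), and the remaining settings did not. Slc41a3, of the magnesium carrier family, averaged 296 ± 66.6 after IL-33 and 881 ± 125 after PBS (−1.59 ± 0.66, adjusted p = 0.184). Of the alternative settings, DESeq2 alone called Slc41a3 (−1.57, adjusted p = 0.0464). Within the amino acid and inorganic ion classes, genes of this kind lay on both sides of 0.

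The remaining classes were small or had few calls. Of 17 nucleotide sugar carriers and relatives, Slc35c2 alone was called, against 8.60% of all tested genes with a mean of at least 100. The summed share of these 17 genes was 0.0658 ± 0.00928% after IL-33 and 0.0653 ± 0.00643% after PBS. The 2 most abundant were Slc35b2, a Golgi sulfate donor carrier, at 1540 ± 861 after IL-33 and 1841 ± 390 after PBS (−0.44, adjusted p = 0.625), and Slc35f6 at 1845 ± 666 and 724 ± 194 (1.30, adjusted p = 0.155). Of the alternative settings, DESeq2 alone called Slc35f6 (1.35, adjusted p = 0.0409). Of 5 lipid and choline carriers none was called: the choline carrier genes Slc44a2 and Slc44a1 averaged 419 ± 408 and 632 ± 538 after IL-33, against 1569 ± 220 and 194 ± 111 after PBS (adjusted p = 0.109 and 0.389). Of the alternative settings, quantile normalization alone called Slc44a2 (−2.69, adjusted p = 0.0268). The taurine carrier gene Slc6a6 averaged 1932 ± 824 after IL-33 and 2322 ± 927 after PBS (adjusted p = 0.738), and Slc18b1, a vesicular polyamine carrier, 185 ± 159 and 317 ± 279 (adjusted p = 0.730).

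In the organic ion class, Slc10a3 averaged 2064 ± 1840 after IL-33 and 890 ± 544 after PBS (adjusted p = 0.461) and Slc22a17 averaged 682 ± 315 and 650 ± 215 (adjusted p = 0.977). Genes were placed in classes by symbol, so a class name need not give the substrate of each gene. The folate importer gene Slc46a1 averaged 237 ± 249 after IL-33 and 958 ± 668 after PBS (adjusted p = 0.146), and the lysosomal gene Slc49a4 averaged 1862 ± 710 and 2227 ± 1113 (adjusted p = 0.882). Of 4 genes that bear an Slc symbol without being carriers, none was called, and the most abundant were Slc4a1ap at 1424 ± 794 after IL-33 and 1165 ± 452 after PBS (adjusted p = 0.940) and Slc7a6os at 1008 ± 281 and 736 ± 158 (adjusted p = 0.660).

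At the mean of 100, the genes just inside were Slc43a1, at 131 ± 222 after IL-33 and 86.0 ± 115 after PBS, and Slc25a53, at 50.6 ± 99.8 and 186 ± 202. Just outside were Slc24a2, at 119 ± 236 after IL-33 and 71.2 ± 96.6 after PBS, and Slc8a2, at 71.2 ± 141 and 101 ± 177. Each of the 4 had fewer than 3 reads in at least 3 libraries, so that single libraries set these means.

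The 3 rows set apart carry Slc symbols on identifiers of other genes on chromosome 8. The row named Slc27a1 with a mean of 1932 has the identifier of Map1lc3b, an autophagosome protein gene (chr8:121590361-121598760), and averaged 1301 ± 734 after IL-33 and 2563 ± 603 after PBS (adjusted p = 0.190). The rows named Slc4a3 and Slc47a2 have the identifiers of Cdt1, a DNA replication licensing gene, and of the pseudogene Rps12-ps9, and neither was called (adjusted p = 0.970 and 0.848). The table's other Slc27a1 row, whose identifier is that of the fatty acid carrier gene itself, averaged 2.8 ± 4.43 after IL-33 and 308 ± 312 after PBS (−5.07, adjusted p = 0.252). Of the alternative settings, DESeq2 alone called this gene (−6.76, adjusted p = 0.00276), which had fewer than 3 reads in 4 libraries.

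Membrane transporters outside the Slc symbols were set beside these genes. Of 39 tested carrier genes without an Slc symbol none rose and 2 fell, a share near the 5.85% called among all genes tested. Slco2b1, an organic anion carrier, was at 3546, 2073, 1719 and 5889 after IL-33, against 20007, 22348, 29103 and 20387 after PBS (−2.95 ± 0.32, adjusted p = 5.05e-06). Xpr1, the phosphate exporter, averaged 686 ± 700 after IL-33 and 2809 ± 1619 after PBS (−2.49, adjusted p = 0.0345), with overlapping values. Its call ended without IL-33 replicate 3 (−2.10), without any 1 PBS library (−2.73 to −2.14), without IL-33 replicates 3 and 4 together (−1.22) and in edgeR (−2.01, adjusted p = 0.0614). It also ended with no filter on low values (adjusted p = 0.114) and with no variance trend (0.204). Of 26 tested ABC transporters, 2 rose and 2 fell, against 5.85% called among all genes tested. Abcc4 averaged 721 ± 154 after IL-33 and 16.8 ± 29.2 after PBS (6.81, adjusted p = 0.0173), Abcc1 averaged 2509 ± 1298 and 499 ± 366 (3.12, adjusted p = 0.0483), and Abcc5 averaged 84.2 ± 108 and 954 ± 452 (−5.66, adjusted p = 0.0439). All 3 are exporters of organic anions. The Abcc4 call ended without IL-33 replicate 2 or 3 (6.79 and 6.68) or both replicates 3 and 4 (6.65), the Abcc5 call without IL-33 replicate 1 or any 1 PBS library (−5.83 to −4.28), and the Abcc1 call without any 1 library except PBS replicate 5 (1.87 to 3.58) or without IL-33 replicates 3 and 4 (2.76). In edgeR the adjusted p was 0.0207 for Abcc4, 0.131 for Abcc5 and 0.0504 for Abcc1. The Abcc5 and Abcc1 calls also ended with a pseudocount of 0.5 (adjusted p = 0.0519 and 0.0536), a minimum mean of 50 (0.0538 and 0.0535), no filter on low values (0.121 and 0.172) and no variance trend (0.159 and 0.256).

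Whether IL-33 acted alike in both sexes was tested with a sex by treatment term, on 2 libraries for each sex and treatment. The male IL-33 libraries were replicates 3 and 4, those with the fewest genes, so the term cannot separate sex from that difference. No Slc gene and no other gene was called (0.00% of genes tested, limma). At an unadjusted p under 0.05 there were 9 of the 153 Slc genes (5.88%), against 5.83% of all genes tested, and edgeR called none of the 153.

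In fits that left out 1 library, 9 of the 12 rises and 4 of the 10 falls were called every time. The rises were Slc11a2, Slc31a2, Slc31a1, Slc39a14, Slc39a1, Slc15a3, Slc7a11, Slc25a10 and Slc13a3, and the falls Slc2a5, Slc29a3, Slc8a1 and Slc16a6. With no variance trend in the model, 5 of these 13 missed the threshold: Slc31a1 (adjusted p = 0.0509), Slc39a1 (0.114), Slc13a3 (0.0840), Slc29a3 (0.0867) and Slc16a6 (0.201). Slc16a6 also missed it with no filter on low values (0.0581). When IL-33 replicates 3 and 4 were both left out, limma called 8 Slc genes higher and 14 lower, and 17 of the 22 calls were kept in it. That fit compared only female IL-33 libraries with PBS libraries of both sexes.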

How the data were processed

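RNA of sorted hippocampal microglia was measured in 4 IL-33 and 4 PBS libraries. The authors deposited 1 table of normalized counts, a signal per gene and library; whole reads could be recovered from 100% of its nonzero values (each within 0.01 of a whole read), that is, every library was scaled by a single factor. Per the submitters' processing notes FastQC, STAR 2.5.4b, HTSeq 0.9.0, DESeq2 1.24.0, mm10 and GRCm38 were used, with no roles named. How strand, multi-mapped and duplicate reads were treated is not given in the sources used here. No molecular identifiers are named in the labels, so reads may not be independent molecules and floors cover counting error only (3 reads equal 2.20 to 3.12 on the deposited scale).

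Groups came from the labels. limma 3.58.1 (R 4.3.3) with a variance trend was fitted to log2(value + 1) of 13877 genes (those with a mean of 10 or more, re-applied when a library was left out), two-sided, with Benjamini-Hochberg adjustment over all of them and a threshold of 0.05. All adjusted p-values are from limma unless edgeR or DESeq2 is named. Fold changes are differences of group means of log2(value + 1), IL-33 minus PBS. The added 1 shrinks the change of low genes, while averaging logs can exceed the log2 ratio of group means where libraries spread (6.77 against 5.01 for Slc7a11, −4.18 against −2.59 for Slc35c2). The script was tested on simulated data. Coordinates are GENCODE M21 (GRCm38), 1-based. On chromosome 8, 209 rows between 119910360 and 124345724 carry another gene's symbol, of 227 such rows in all, and the identifier was followed there.

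Members and lists were chosen with earlier results of these data known, and 3 substrate assignments (Slc13, Slc49a4 and Slc7a6os) were changed after values were seen. A further marker list is not reported here. Named genes are every called gene, the 2 most abundant of each class, the 2 on each side of the mean of 100, and up to 3 called genes of each related list; others are marked as chosen after their values were seen. Alternatives were pseudocounts of 0.5 and 5, no filter, a minimum mean of 50, TMM and quantile scaling, no variance trend, library weights, sex as a covariate, edgeR 4.0.16 and DESeq2 1.42.0 on the recovered reads, and left-out libraries.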

Additional observations from a re-analysis of the deposited data

Results flagged for a closer look

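Groups of 4 values were checked for the genes named by the rule. In 10 of 82 groups, 1 library stood apart from the nearest of the others by more than the limit for 4 values. Chance flags about 1 in 20 groups of normally distributed values. The limit was applied to the normalised counts and not to their logs, so that rate need not hold here. After IL-33, replicate 4 stood apart at 3660 for Slc13a3, at 23395 for Slc25a3 and at 462 for Slc43a1. IL-33 replicate 3 stood apart at 9372 for Slc39a1 and at 200 for Slc25a53, and IL-33 replicate 2 at 740 for Slc8a1. After PBS, replicate 6 stood apart at 188 for Slc7a11, at 394 for Slc25a10 and at 4614 for Slc9a9, and PBS replicate 7 at 1895 for Slc44a2. In each case the library was the highest of its group. The called genes among these kept their direction in every alternative run.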

How the results depend on the processing

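The 22 called genes kept their direction in all 20 alternatives. At the other settings 10 to 22 of them were also called: 10 with no variance trend, 15 with no filter on low values, 17 without IL-33 replicates 3 and 4, 14 to 21 without 1 library, and 21 or 22 otherwise. By a factor above 1.5, counts of Slc genes called higher moved only to 7 with no variance trend. They were 8 without IL-33 replicates 3 and 4, 14 with library weights and 17 with DESeq2, against 12 in the fit described above. Counts called lower moved by such a factor to 5 with no filter, 16 with quantile normalization, 4 with no variance trend and 18 with DESeq2. They were 14 without IL-33 replicates 3 and 4 and 15 with library weights, against 10 in the fit described above. Without 1 library the counts were 10 to 12 higher and 4 to 14 lower. For all tested genes called higher after IL-33 the count was 175 with no variance trend, 790 with DESeq2, 439 with edgeR and 285 without IL-33 replicates 3 and 4, and 305 to 432 without 1 library. For all tested genes called lower after IL-33 it was 204 with no filter, 238 with no variance trend, 877 with DESeq2, 318 with edgeR and 473 without IL-33 replicates 3 and 4, and 153 to 531 without 1 library. The cause was not tested. The count of metal carriers that rose was 4 to 6 in every alternative; counts in the other classes, all 3 or fewer, moved by up to 2 genes. The median log2 fold change of all genes moved by 0.32 in edgeR, by 0.31 in DESeq2, by 0.29 with quantile normalization and by 0.28 without IL-33 replicates 3 and 4. Among those of the 153 Slc genes that were not called and that the text names, the sign turned for Slc15a4 (0.01 in edgeR and DESeq2, 0.15 without IL-33 replicates 3 and 4), Slc18b1 (0.02 with quantile normalization, 0.21 without IL-33 replicates 3 and 4), Slc4a1ap (−0.04 with quantile normalization, −0.13 with library weights, −0.31 without IL-33 replicates 3 and 4), Slc35b2 (0.24 without them) and Slc22a17 (0.17 with library weights, 0.08 in edgeR, 0.07 in DESeq2, 0.37 without them). Outside the 153 genes, Slc24a2 turned from −1.87 to 0.76 in edgeR, 0.74 in DESeq2 and 0.21 without IL-33 replicates 3 and 4. Slc8a2 turned from −0.91 to 1.14 without them, and the Cdt1 row from −0.20 to 1.59 in edgeR and 1.58 in DESeq2. Without 1 library the log2 fold change ranged from −2.43 to 0.53 for Slc18b1, from −0.19 to 0.68 for Slc4a1ap, from −0.26 to 0.40 for Slc22a17, from −0.56 to 0.08 for Slc49a4, from −0.79 to 2.16 for Slc43a1, from −0.24 to 0.22 for Slc15a4 and from −1.42 to 1.93 for Slc1a2. No paired analysis was possible because the groups share no replicate number. None of the 58 Slc rows with a mean of 10 to 100 was called, and the part of depth in this was not tested.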
